A study of Mus musculus with 10 samples.

Results

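Chemokine ligands and receptors are the 65 entries of the deposited gene table whose symbol begins with Ccl, Cxcl, Cx3cl, Xcl, Ccr, Cxcr, Cx3cr, Xcr or Ackr, of 25233 entries with a symbol and 62322 in all. They comprised 42 ligand and 23 receptor entries, and 64 symbols, because *Ccl19-ps2* was listed at 2 positions. The study compared hypertrophied hepatic stellate cells (hypHSC) with quiescent ones (qHSC) by bulk RNA-seq. Stellate cells are the retinoid-storing cells that lie beside the sinusoids of the liver. All mice were C57BL/6J. The 5 hypHSC preparations came from mice that ate a high-fat feed lacking choline, the CDAHFD: hypHSC 1 and 2 after 13 weeks of diet at 19 weeks of age, and hypHSC 3, 4 and 5 after 12 weeks at 18 weeks of age. The 5 qHSC preparations came from mice fed a standard diet, aged 36 weeks for qHSC 1, 2 and 5 and 34 weeks for qHSC 3 and 4. Livers of the CDAHFD mice were digested more strongly than the others, and hypHSC were gated on green and qHSC on blue fluorescence. Diet, age, digestion and gate thus cannot be told apart. Libraries are not tied to single mice in the sources used here, so n counts preparations and the p-values measure the spread between them.

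Chemokines are small secreted proteins that bind the sugar chains of cell surfaces and matrix and guide leukocytes along their gradients. Most act through G protein-coupled receptors (Ccr, Cxcr, Cx3cr and Xcr), and 1 receptor often takes several ligands. The atypical receptors (Ackr) bind and take up chemokines without coupling to G proteins. In the liver, macrophages, sinusoidal endothelial cells and stellate cells are known sources of chemokines, among them *Ccl2*, which draws monocytes through *Ccr2*, and *Cxcl12*, a stromal chemokine that holds hematopoietic cells through *Cxcr4*.

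Values are normalized counts, that is, reads per gene divided by 1 size factor per library. Values in a row are given in the order of libraries 1 to 5 of a group. Reads on entries with a symbol ranged from 30534719 to 43283589 in hypHSC and from 35640104 to 47317028 in qHSC. The limit of detection was set at 3 reads, which equal 2.25 to 4.54 normalized counts and cover counting error only. Fold changes are hypHSC over qHSC on the log2(normalized count + 1) scale, which understates the change of low genes. They were tested with limma for the 14630 genes that reached 10 normalized counts in 5 or more of the 10 libraries, and p was adjusted over all of these by the Benjamini-Hochberg procedure. A gene was called differentially expressed (DEG) where its log2 fold change was 1 or more in either direction and its adjusted p did not exceed 0.05. By this rule 39.5% of all genes tested were called, with 17.8% higher and 21.7% lower in hypHSC, and the median log2 fold change of all genes was -0.20. In these bulk libraries, fewer cells of a type and less RNA per cell cannot be told apart.

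Promoter sequences were taken from a RefSeq table on GRCm38.p6, which held a window of 300 bases (250 before the start of the gene and 50 after it) for 47 of the 64 symbols. The windows printed are those of *Cxcl3*, *Cxcl1* and *Cxcl2*, which are close neighbours and did not get the same call, of *Ccl9*, *Ccl6* and *Ccl3*, which lie next to each other and all rose, and of *Cxcl12*, which showed the largest fall among the ligands. They are written 5′ to 3′ on the strand of the gene, and capitals mark each match to the NF-kB motif, the binding motif of the factor that relays signals of inflammation.
Cxcl3: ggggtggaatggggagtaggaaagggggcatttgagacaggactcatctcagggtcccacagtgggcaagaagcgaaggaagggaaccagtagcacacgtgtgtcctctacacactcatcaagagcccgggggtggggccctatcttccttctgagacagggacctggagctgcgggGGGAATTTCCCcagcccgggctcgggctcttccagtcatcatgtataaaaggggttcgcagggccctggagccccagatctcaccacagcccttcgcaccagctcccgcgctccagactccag
Cxcl1: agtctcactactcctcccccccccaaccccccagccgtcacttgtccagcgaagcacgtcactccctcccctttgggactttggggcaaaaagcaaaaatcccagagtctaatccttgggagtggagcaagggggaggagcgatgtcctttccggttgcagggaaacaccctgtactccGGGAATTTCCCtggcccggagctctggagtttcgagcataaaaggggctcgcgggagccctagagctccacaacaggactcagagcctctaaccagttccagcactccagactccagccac
Cxcl2: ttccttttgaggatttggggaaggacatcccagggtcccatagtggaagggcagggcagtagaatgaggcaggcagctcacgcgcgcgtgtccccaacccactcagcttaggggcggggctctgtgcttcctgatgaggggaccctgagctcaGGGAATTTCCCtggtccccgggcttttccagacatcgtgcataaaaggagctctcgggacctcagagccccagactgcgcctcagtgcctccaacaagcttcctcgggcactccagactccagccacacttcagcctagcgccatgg
Ccl9: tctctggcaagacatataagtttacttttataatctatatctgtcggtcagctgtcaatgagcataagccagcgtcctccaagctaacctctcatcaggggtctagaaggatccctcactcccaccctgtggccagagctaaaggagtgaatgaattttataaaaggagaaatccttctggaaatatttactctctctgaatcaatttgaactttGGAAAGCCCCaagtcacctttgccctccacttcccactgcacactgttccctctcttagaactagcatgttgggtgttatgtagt
Ccl6: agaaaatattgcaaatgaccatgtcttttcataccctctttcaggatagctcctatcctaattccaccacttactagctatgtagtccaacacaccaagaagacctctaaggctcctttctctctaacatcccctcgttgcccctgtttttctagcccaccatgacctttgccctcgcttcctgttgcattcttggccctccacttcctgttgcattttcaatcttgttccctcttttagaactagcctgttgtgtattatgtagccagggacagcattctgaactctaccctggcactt
Ccl3: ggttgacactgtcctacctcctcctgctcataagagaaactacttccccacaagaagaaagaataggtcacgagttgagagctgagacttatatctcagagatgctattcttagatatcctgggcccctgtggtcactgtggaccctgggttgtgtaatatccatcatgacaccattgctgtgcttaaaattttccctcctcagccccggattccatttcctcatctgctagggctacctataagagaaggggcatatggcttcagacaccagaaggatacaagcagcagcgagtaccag
Cxcl12: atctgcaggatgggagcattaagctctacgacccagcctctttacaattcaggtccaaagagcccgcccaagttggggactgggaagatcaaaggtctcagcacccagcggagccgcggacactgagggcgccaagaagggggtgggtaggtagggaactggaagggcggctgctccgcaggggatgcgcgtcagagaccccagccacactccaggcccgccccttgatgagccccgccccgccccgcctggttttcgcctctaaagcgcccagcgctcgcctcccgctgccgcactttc
The windows lie on GRCm38.p6 at chr5:90785851-90786150, chr5:90890995-90891294 and chr5:90903649-90903948 (plus strand), at chr11:83578587-83578886, chr11:83593038-83593337 and chr11:83649329-83649628 (minus strand) and at chr6:117168285-117168584 (plus strand). The same 11 bases, GGGAATTTCCC, stand in the windows of *Cxcl3*, *Cxcl1* and *Cxcl2*, and their first base lies 73, 71 and 97 bases before the start. This run holds 2 overlapping matches, 1 base apart. Of the other windows printed, *Ccl9* has 1 match, 35 bases before its start, and *Ccl6*, *Ccl3* and *Cxcl12* have none. Over both strands of all 32851 windows of the table, 4.51% held the NF-kB motif. Among tested members with a window, and taking the first window listed for a gene, it stood in 4 of 13 that were called higher in hypHSC (*Ccl9*, *Cxcl3*, *Cxcl2* and *Ccr3*), in 2 of 10 called lower (*Cxcl10* and *Ackr2*) and in 1 of 13 not called (*Cxcl1*). *Ccl27a*, which was not called, held a match in a further window. Other motifs were searched likewise, and further windows of *Ccl25*, *Ccl27a* and *Ccl27b* held matches that are not counted here. The AP-1 letters TGANTCA stood in 7.81% of all windows and in 2, 1 and 1 of those members. The C/EBP letters TTGCNNAA were found in 10.8% of all windows and in 0, 3 and 3 members, the PU.1 letters GAGGAAG in 13.6% and in 2, 2 and 2 members, and the TATA letters TATAAA in 13.6% and in 4, 1 and 6 members. These matches describe letters in a window and not bound sites.

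The labels name all 10 preparations as stellate cells, and marker lists of liver cell types were counted beside the chemokines. All 11 quiescent stellate cell markers, such as *Lrat*, were lower in hypHSC, where their summed level was 8887 to 25146 normalized counts, against 776331 to 1417270 in qHSC. All 14 core macrophage markers, such as *Lyz2*, were higher, with sums of 1177780 to 1607050 in hypHSC. In qHSC the macrophage sums were 57029, 5549, 12407, 130374 and 10587, so qHSC 4 and qHSC 1 held the most. All 5 neutrophil markers tested were higher too (sums over the whole list of 2031 to 8307 against 10.5 to 402), and of these *Retnlg* was at 25.8 to 189 in hypHSC and at 0 in every qHSC library. *Retnlg* and *S100a9* entered the test through hypHSC alone. The other 5 neutrophil markers (*Camp*, *Ngp*, *Ly6g*, *Mpo* and *Elane*) were not tested and did not exceed 37.7 in any library, with *Camp* at 0 in 4 and *Ngp* in 3 of the hypHSC libraries. Of the T and NK cell markers 2 were tested and neither was a DEG. Among the other lists, all 7 lipid-associated macrophage markers were higher (569016 to 750725 against 17790 to 20467), as were 3 of 8 resident Kupffer cell markers (with 1 lower), 1 of 3 B cell markers, 2 of 7 monocyte and dendritic cell markers (with 2 lower), 4 of 4 cholangiocyte markers, 2 of 3 mesothelial and portal fibroblast markers, and 2 of 8 activated stellate cell markers (with 2 lower). The 4 cholangiocyte markers tested, of 6 listed, include *Spp1*, which is also in the lipid-associated macrophage list. In hypHSC *Spp1* was at 160907 to 335921, where the whole cholangiocyte list summed to 161426 to 336684. Of 8 sinusoidal endothelial markers 1 was higher and 4 were lower, and of 7 hepatocyte markers none was a DEG. Mitochondrial genes took 2.21% to 12.8% of all reads in hypHSC and 1.25% to 1.61% in qHSC, and entries without a symbol took 10.8% to 29.1% and 8.98% to 10.2%. The part of these cells and of these read shares in the chemokine values was not tested.

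Of the 42 ligand entries, 35 were tested. Of these, 10 were DEGs higher in hypHSC, 11 were DEGs lower, and 14 were not DEGs, with a median log2 fold change of -0.17. Over all genes tested, 17.8% were called higher and 21.7% lower. When libraries were scaled on *Hprt*, *Pgk1* and *Actb* instead, 8 were higher and 16 lower. Before that scaling, *Hprt* (log2 fold change 1.25) and *Pgk1* (1.44) were themselves DEGs higher in hypHSC. *Actb* was not a DEG (0.12) but ranged from 18213 to 296496 normalized counts within hypHSC. The groups did not overlap in 18 of the 35, 9 of them higher and 9 lower, where 39.5% of all genes tested did not overlap, 17.6% higher and 22.0% lower. Of the 9 *Ccl19*, *Ccl21* and *Ccl27* entries, all on chromosome 4, 8 were lower and none higher, with a median log2 fold change of -1.90. Of the 26 other ligands tested, 10 were higher (*Ccl9*, *Ccl6*, *Cxcl3*, *Cxcl2*, *Ccl3*, *Ccl17*, *Ccl4*, *Ccl12*, *Ccl5* and *Ccl25*), 3 were lower (*Cxcl12*, *Cxcl10* and *Ccl2*) and 13 were not DEGs, with a median of 1.22.

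**Figure D1:**
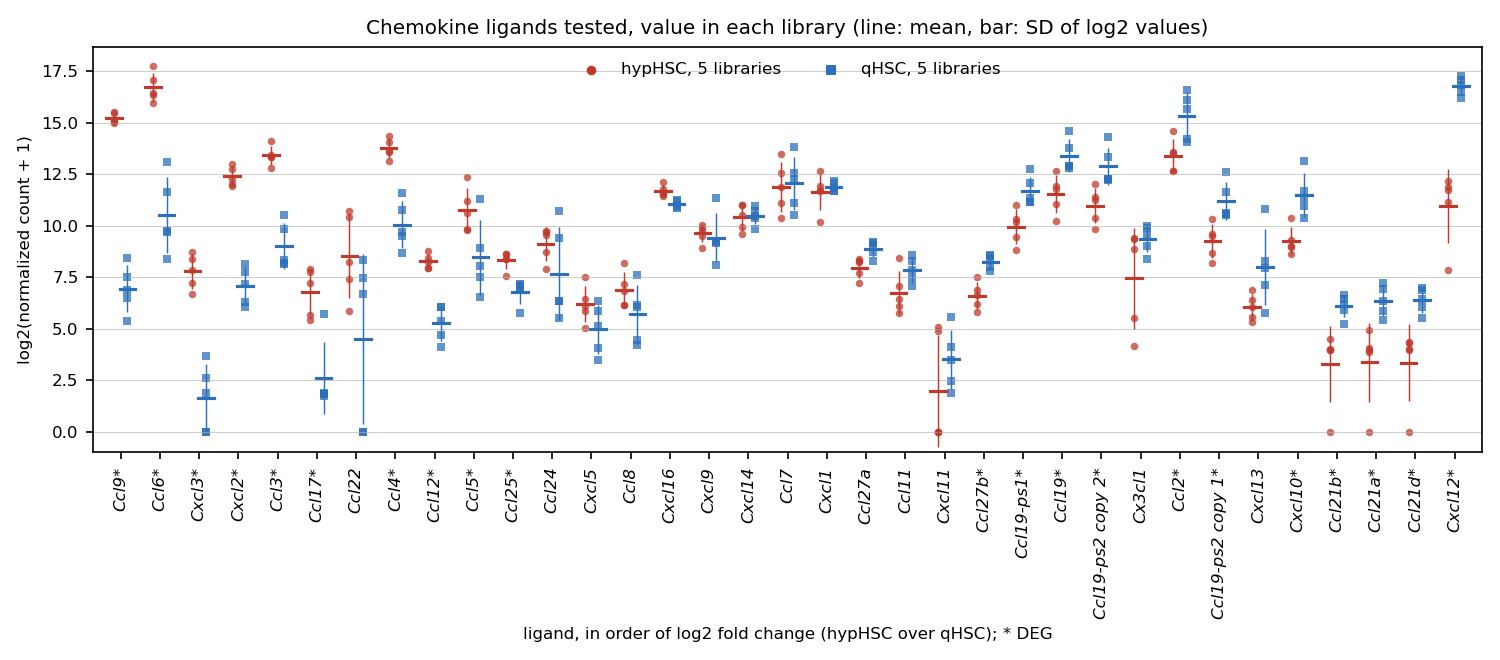
Normalized counts of the 35 ligands tested, as log2(normalized count + 1), in each of the 5 hypHSC libraries (red circles) and 5 qHSC libraries (blue squares), in order of log2 fold change from *Ccl9* to *Cxcl12*. Lines are means, bars are SDs of the log2 values, and an asterisk marks the 21 DEGs. *Ccl9* and *Ccl6* show the largest rises of the mean and *Cxcl12* the largest fall, none of them with overlap between the groups.

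The 5 neighbours *Ccl5*, *Ccl9*, *Ccl6*, *Ccl3* and *Ccl4*, which lie within 139.7 kb of chromosome 11 (chr11:83416607-83556266 on GRCm39), were all DEGs higher in hypHSC. They encode inflammatory CC chemokines, of which *Ccl9*, *Ccl6*, *Ccl3* and *Ccl5* bind *Ccr1*. Normalized counts of *Ccl9* were 46271, 45590.4, 32413, 34363 and 34382 in the hypHSC libraries and 116, 40.9, 180.3, 347 and 89.9 in the qHSC libraries. Every hypHSC library was thus far above every qHSC library, and *Ccl9* showed the largest rise of all members (log2 fold change 8.28, SE 0.45, adjusted p = 2.36e-07). *Ccl6* reached 89470.4, 82907, 63528, 136180 and 218967 in hypHSC and 3195, 335, 853, 8726 and 809 in qHSC. Both groups spread widely, with hypHSC 5 the highest and qHSC 2 the lowest, but they did not overlap (log2 fold change 6.20, SE 0.76, adjusted p = 5.92e-05). In qHSC, the libraries with the most *Ccl6*, qHSC 4 and qHSC 1, were those with the highest macrophage marker sums. *Ccl3* was measured at 11076, 10431, 7158, 10332 and 17398 in hypHSC and 911, 322, 282, 1475 and 294 in qHSC, and *Ccl4* at 21041, 17214, 12095, 12435 and 8955 and 1702, 400.5, 835, 3049 and 731. Neither overlapped between the groups, and again qHSC 4 and qHSC 1 were the highest of the qHSC libraries. The rises were 4.39 for *Ccl3* (SE 0.46, adjusted p = 2.11e-05) and 3.71 for *Ccl4* (SE 0.48, adjusted p = 8.77e-05) on the log2 scale. The antisense gene *Gm53692* covers 35.6% of the exon bases of *Ccl3*, and the reads were counted without strand.

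*Ccl5*, the end member of this neighbourhood and a chemokine of T cells and platelets as well as macrophages, moved least. Its levels were 5162, 2355, 919.7, 1541 and 886 in hypHSC and 177, 92.0, 2539, 483 and 264 in qHSC. The groups overlapped, because qHSC 3 held more than the other 4 qHSC libraries together and more than 4 of the hypHSC libraries (log2 fold change 2.29, SE 0.80, adjusted p = 0.0348). The call was lost when any of 6 of the 10 libraries was left out (hypHSC 1, 2 or 4, or qHSC 1, 2 or 5), in edgeR (adjusted p = 0.149) and in DESeq2 (adjusted p = 0.0813). Without 1 library at a time its log2 fold change ran from 1.81 to 3.01. The calls of *Ccl9*, *Ccl6*, *Ccl3* and *Ccl4* held without any 1 library.

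*Ccl2* and its neighbours on chromosome 11 (chr11:81926401-82196516), 6 genes within 270.1 kb, did not move as a block. *Ccl2*, the main attractant of monocytes, was higher in qHSC. It measured 11663, 6389.6, 6369, 12118 and 24861 in hypHSC and 18976, 17034, 99218, 51999 and 69241 in qHSC. hypHSC 5 stood above the 2 lowest qHSC libraries, so the groups overlapped (log2 fold change -1.93, SE 0.54, adjusted p = 0.0123), and with the hypHSC libraries of 12 weeks alone the adjusted p was 0.0599. The adjacent *Ccl7*, which also acts through *Ccr2*, ranged over 1328 to 11371 in hypHSC and 1459.5 to 14568 in qHSC and was not a DEG (log2 fold change -0.17, SE 0.68, adjusted p = 0.854). Its sign changed when hypHSC 2, hypHSC 3 or qHSC 3 was left out. *Ccl12*, another mouse ligand of *Ccr2*, was the member of this neighbourhood that rose. Its values were 348, 246, 247, 427 and 296 in hypHSC and 24.4, 16.2, 65.3, 65.0 and 40.5 in qHSC. The lowest hypHSC library held more than the highest qHSC library by a wide margin (log2 fold change 3.01, SE 0.43, adjusted p = 0.000175). The eosinophil attractant *Ccl11* (53.2 to 339 in hypHSC, 131 to 374 in qHSC, log2 fold change -1.09, SE 0.51, adjusted p = 0.0978) and *Ccl8* (69.8 to 286 and 17.2 to 196, log2 fold change 1.21, SE 0.68, adjusted p = 0.162) were not DEGs. *Ccl11* was called lower when hypHSC 5 was left out (-1.51, adjusted p = 0.0072), and *Ccl8* was called higher without qHSC 3 (1.70, adjusted p = 0.046). *Ccl1* had no read in any library.

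The neutrophil attractants of chromosome 5 (chr5:90907157-91053797), which share the receptor *Cxcr2*, were split. *Cxcl2* held 4192, 8117, 3845, 4954 and 6767 normalized counts in hypHSC and 142, 64.8, 214, 278 and 77.9 in qHSC. Its groups did not overlap (log2 fold change 5.31, SE 0.40, adjusted p = 2.04e-06). *Cxcl3* stood at 149.6, 427, 328, 101 and 231 in hypHSC and 2.72, 5.11, 11.8, 0 and 0 in qHSC. Of its qHSC libraries, 2 had no read, and the groups did not overlap (log2 fold change 6.14, SE 0.78, adjusted p = 8.14e-05). The size of this rise depended on the count added before the log, from 4.80 with 5 added to 6.61 with 0.5 added. *Cxcl1* was abundant in both groups, at 1158 to 6339 in hypHSC and 3229 to 4610.4 in qHSC, and was not a DEG (log2 fold change -0.25, SE 0.37, adjusted p = 0.607). Leaving out 1 library at a time gave log2 fold changes of -0.50 to 0.12. *Cxcl5* was low and likewise not a DEG (32.1 to 179 in hypHSC, 10.2 to 79.5 in qHSC, log2 fold change 1.22, SE 0.65, adjusted p = 0.142), and *Cxcl15* reached at most 6.74 and was not tested. Thus *Cxcl1* and *Cxcl2*, whose promoter windows hold the same NF-kB match, gave different calls. The difference between the 2 genes was not itself tested.

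**Figure D2:**
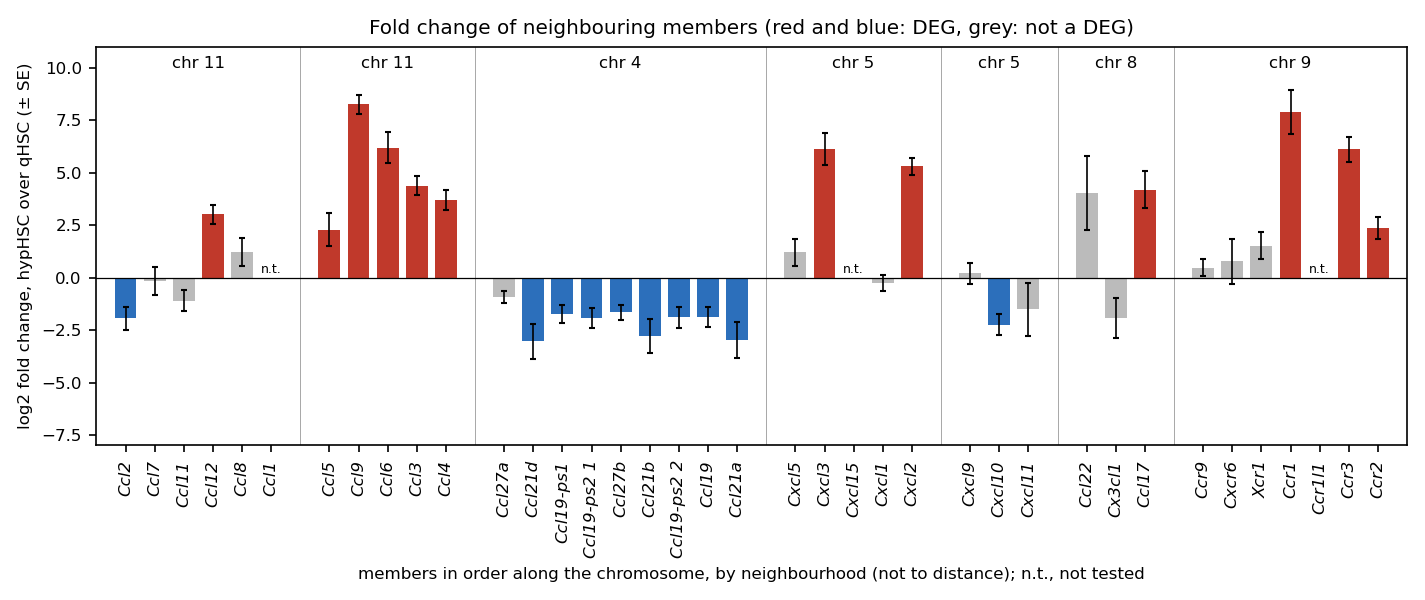
Log2 fold change (hypHSC over qHSC, bars, with SE) of members in the 7 chromosomal neighbourhoods with at least 3 tested members, in order along each chromosome. Red and blue bars are DEGs, grey bars are not, and n.t. marks members not tested. The *Ccl5* to *Ccl4* neighbourhood of chromosome 11 rose in all 5 members, that of chromosome 4 fell in 8 of 9, and each of the others held members that were not DEGs.

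On chromosome 8, the dendritic cell and macrophage ligands *Ccl17* and *Ccl22*, which share the receptor *Ccr4*, stand beside *Cx3cl1*, the membrane-bound fractalkine. *Ccl17* was at 214, 149, 42.4, 50.4 and 236 in hypHSC and 2.72, 2.56, 2.36, 2.57 and 51.7 in qHSC. Apart from qHSC 5, every qHSC library was at or near the floor (log2 fold change 4.19, SE 0.87, adjusted p = 0.00223). *Ccl22* covered 56.6 to 1688 in hypHSC and 0 to 325 in qHSC and was not a DEG (log2 fold change 4.03, SE 1.76, adjusted p = 0.0806). Without qHSC 5 it was one (4.99, adjusted p = 0.0417). *Cx3cl1* showed the opposite sign, 16.6 to 673 in hypHSC and 333 to 1021 in qHSC, and was not a DEG (log2 fold change -1.92, SE 0.98, adjusted p = 0.126), whereas with the 3 hypHSC libraries of 12 weeks alone it was called lower (-3.02, adjusted p = 0.0363).

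*Ccl25*, which is known from thymus and gut and binds *Ccr9*, showed a smaller rise. Its values were 334, 185, 336, 398 and 393 in hypHSC and 128, 116, 143, 53.0 and 137 in qHSC, without overlap (log2 fold change 1.53, SE 0.35, adjusted p = 0.00390). The call did not hold when the libraries were scaled on *Hprt*, *Pgk1* and *Actb* (0.60, adjusted p = 0.262), a scaling under which the median of all genes was 0.93 lower on the log2 scale. *Hprt* and *Pgk1* were themselves DEGs higher in hypHSC without it.

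*Cxcl12* showed the largest fall among the ligands. It held 4511, 3782, 3439, 2239.8 and 227 normalized counts in hypHSC and 136467, 156911, 74737, 91234 and 114716 in qHSC. Every qHSC library far exceeded every hypHSC library, and hypHSC 5 was the lowest of its group by far (log2 fold change -5.81, SE 0.70, adjusted p = 5.47e-05). Left out in turn, the libraries moved this value between -6.11 and -5.03. *Cxcl12* lies at chr6:117145496-117158329 on GRCm39. The interferon-induced ligands of *Cxcr3* on chromosome 5 did not move together. *Cxcl10* fell, from 1949.5, 1299, 9109.8, 3279.8 and 2591 in qHSC to 1338, 509, 492, 386 and 631 in hypHSC. Its groups overlapped only in that hypHSC 1 stood above qHSC 2 (log2 fold change -2.24, SE 0.49, adjusted p = 0.00304). The overlapping gene *Art3*, which covers 5.91% of the exon bases of *Cxcl10*, was also lower (log2 fold change -4.60), and its part in the value was not tested. *Cxcl9* (484 to 1034 in hypHSC, 267 to 2569.8 in qHSC, log2 fold change 0.21, SE 0.50, adjusted p = 0.749) was not a DEG, and its sign changed without qHSC 2, under other scalings, and in edgeR and DESeq2. *Cxcl11* did not exceed 45.7 in any library and had a log2 fold change of -1.51 (adjusted p = 0.347). In qHSC, qHSC 3 was the highest library for *Cxcl9*, *Cxcl10* and *Cxcl11*, as it was for *Ccl2*, *Ccl7* and *Ccl5*. This library also had the lowest summed level of 12 immediate early and dissociation response genes (108553 normalized counts, where the other 4 had 303288 to 364112), and the part of that in these values was not tested.

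*Cxcl13*, the attractant of B cells, was at 38.3 to 115 in hypHSC and 53.7 to 1811 in qHSC, with qHSC 4 the highest (log2 fold change -1.95, SE 0.78, adjusted p = 0.0583, not a DEG). It was called lower by edgeR (-2.84, adjusted p = 0.0189) and by DESeq2 (-2.88, adjusted p = 0.000647). *Ccl24*, a ligand of *Ccr3*, was likewise highest in qHSC 4 and qHSC 1. It ranged over 44.9 to 1655 in qHSC and 233 to 842 in hypHSC and was not a DEG (log2 fold change 1.44, SE 0.92, adjusted p = 0.218), but was called higher without qHSC 4 (2.20, adjusted p = 0.0339). *Cxcl14* was at 778 to 2072 in hypHSC and 922 to 2008 in qHSC and was not a DEG (log2 fold change -0.06, SE 0.31, adjusted p = 0.895), with a sign that changed under several settings. *Cxcl16*, the transmembrane ligand of *Cxcr6*, did not overlap between 2771 to 4496 in hypHSC and 1870.2 to 2383 in qHSC, yet its log2 fold change of 0.65 (SE 0.17, adjusted p = 0.00742) missed the fold threshold, and its sign changed when libraries were scaled on *Hprt*, *Pgk1* and *Actb* (-0.29). In the GENCODE gene annotation, 84.8% of the exon bases of *Cxcl16* are shared with *Med11* and *Zmynd15*. In the deposited positions, *Med11* (chr11:70342739-70344558) ends before *Cxcl16* (chr11:70345060-70350814) starts, and *Zmynd15* (chr11:70350255-70357028) overlaps its end. The part of reads of these genes in the value was not tested. *Med11* was higher (log2 fold change 1.76) and *Zmynd15* lower (-1.48).

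The homeostatic lymph node chemokines *Ccl19* and *Ccl21* guide dendritic cells and T cells through *Ccr7*, and *Ccl27* is known from skin. Their copies on chromosome 4 (chr4:41769467-42773993) share 46.3% (*Ccl21a*) to 100% (*Ccl21b*) of their stretches of 59 bases, the read length, with other genes. For *Ccl19* the share was 74.2%, and for *Ccl27b* and the first copy of *Ccl19-ps2* it was not computed. The assignment of reads among these copies is thus uncertain. *Ccl19* was at 3885, 2114, 1199, 3528 and 6519 in hypHSC and 7185, 7649, 24746, 7639 and 14087 in qHSC. The groups did not overlap (log2 fold change -1.87, SE 0.47, adjusted p = 0.00700), and qHSC 3 was the highest. Its pseudogene entries fell too. *Ccl19-ps1* measured 1256, 707, 442, 1155 and 2071 in hypHSC and 2282, 2576, 6828, 2267 and 4221 in qHSC (log2 fold change -1.73, SE 0.43, adjusted p = 0.00643). The first copy of *Ccl19-ps2* stood at 779, 401, 291, 723 and 1283 and 1463, 1526, 6258, 1554 and 3159.7 (log2 fold change -1.93, SE 0.49, adjusted p = 0.00698), and the second at 2680.2, 1323, 915, 2380.4 and 4202 and 4762, 4896, 19939.9, 4901 and 10178 (log2 fold change -1.90, SE 0.49, adjusted p = 0.00799). In all of these entries hypHSC 5 was the highest of the hypHSC libraries and did not reach the lowest qHSC library. *Ccl27b* fell from 333, 255, 363, 221 and 382 in qHSC to 115, 71.4, 55.7, 97.6 and 182 in hypHSC, without overlap (log2 fold change -1.65, SE 0.35, adjusted p = 0.00251). *Ccl27a* missed the fold threshold (146 to 334 in hypHSC, 306 to 584 in qHSC, log2 fold change -0.92, SE 0.30, adjusted p = 0.0240) and passed it without hypHSC 5 (-1.03) or qHSC 4 (-1.07). *Il11ra1*, which overlaps *Ccl27a*, was lower as well (log2 fold change -1.84). The *Ccl21* entries were low, at 36.8 to 148 in qHSC and 0 to 29.0 in hypHSC. Their log2 fold changes were -2.99 for *Ccl21a* (SE 0.86), -2.79 for *Ccl21b* (SE 0.82) and -3.04 for *Ccl21d* (SE 0.83), all DEGs, and in hypHSC 5 all were at 0.

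The ligands not tested were *Ccl20*, *Xcl1*, *Ccl28*, *Cxcl15*, *Cxcl17*, *Ccl1* and *Ccl26*. *Ccl20*, the ligand of *Ccr6*, was at 48.5, 25.9, 6.65, 0 and 33.3 in hypHSC and at 0 in every qHSC library. Its hypHSC mean was 9.18-fold the mean of the floors of the qHSC libraries (2.49 normalized counts). This ratio holds for the means only, as hypHSC 4 had no read. *Xcl1* reached 16.2, *Ccl28* 9.32 and *Cxcl17* 35.7 in their highest library. *Ccl26*, like *Ccl1*, had no read.

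Of the 23 receptor entries, 15 were tested. Of these, 7 were DEGs higher in hypHSC, 3 were DEGs lower and 5 were not DEGs, with a median log2 fold change of 2.37. Over all genes tested, 17.8% were called higher and 21.7% lower. The groups did not overlap in 9, 6 of them higher and 3 lower, where 17.6% of all genes tested were higher without overlap and 22.0% lower. *Ccr3* passed the filter through hypHSC alone, and *Ackr2* through qHSC alone. Of 11 G protein-coupled receptors tested, 7 were higher (among them *Ccr1*, *Ccr3*, *Cxcr4*, *Cxcr3*, *Ccr7* and *Ccr2*) and none lower, and of 4 atypical receptors, 3 were lower (*Ackr1*, *Ackr2* and *Ackr4*) and none higher. No test was made of the difference between these kinds.

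**Figure D3:**
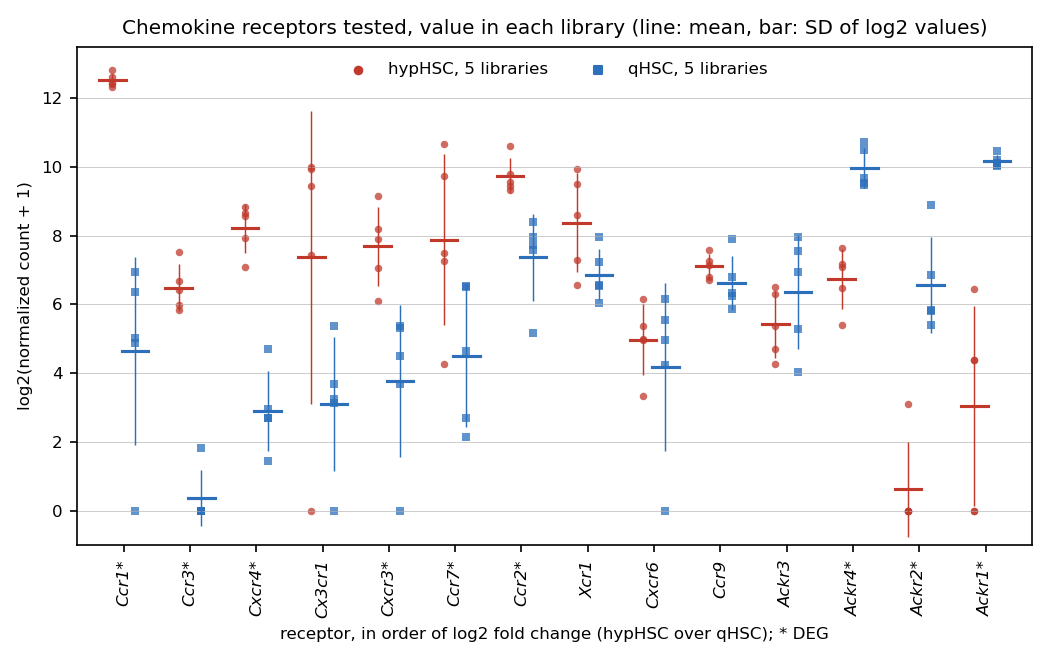
Normalized counts of 14 of the 15 receptors tested, as log2(normalized count + 1), in each of the 5 hypHSC libraries (red circles) and 5 qHSC libraries (blue squares), in order of log2 fold change from *Ccr1* to *Ackr1*. Lines are means, bars are SDs of the log2 values, and an asterisk marks DEGs. *Ccr1* shows the widest gap upward and *Ackr1* the widest downward, and hypHSC 5 lies at 0 for *Cx3cr1*.

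*Ccr1*, a receptor of monocytes and neutrophils for *Ccl3*, *Ccl5*, *Ccl6* and *Ccl9*, showed the largest rise among the receptors. Its values were 5561, 7144, 5450.2, 5091 and 6260.2 in hypHSC and 28.1, 0, 122, 81.3 and 31.5 in qHSC. The hypHSC libraries lay close together, and qHSC 2 had no read (log2 fold change 7.88, SE 1.05, adjusted p = 0.000109). *Ccr2*, the monocyte receptor of *Ccl2*, was at 697, 1548, 882, 745 and 638 in hypHSC and 212, 34.9, 246, 334 and 191 in qHSC. The groups stood apart, with qHSC 2 the lowest (log2 fold change 2.37, SE 0.54, adjusted p = 0.00391). *Ccr3*, known from eosinophils, was at 55.9 to 183 in hypHSC, and in qHSC it had reads in qHSC 2 alone (2.56 normalized counts). Its log2 fold change of 6.12 (SE 0.60, adjusted p = 1.29e-05) depended on the count added before the log, from 4.11 with 5 added to 6.96 with 0.5 added. *Ccr3* entered the test through its hypHSC libraries alone, so its adjusted p is a description. *Ccr1*, *Ccr3* and *Ccr2* lie on chromosome 9 near *Ccr9*, *Cxcr6* and *Xcr1*, which were not DEGs.

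*Cxcr4*, the receptor of *Cxcl12*, measured 455, 242, 135, 399 and 375 in hypHSC and 5.43, 1.70, 5.51, 24.8 and 6.74 in qHSC. The lowest hypHSC library was well above the highest qHSC library (log2 fold change 5.32, SE 0.61, adjusted p = 3.76e-05). *Cxcr3*, the receptor of *Cxcl9*, *Cxcl10* and *Cxcl11* on T and NK cells, reached 294, 562, 239.5, 131 and 68.1 in hypHSC and 21.7, 0, 11.8, 38.5 and 40.5 in qHSC. It did not overlap between the groups (log2 fold change 3.91, SE 0.99, adjusted p = 0.00730), but with the hypHSC libraries of 12 weeks alone the adjusted p was 0.0507. *Ccr7*, which carries dendritic cells and T cells toward *Ccl19* and *Ccl21*, stood at 853, 1619, 151, 177 and 18.1 in hypHSC and 5.43, 3.41, 90.5, 92.4 and 24.0 in qHSC. hypHSC 5 was lower than 3 of the qHSC libraries, and hypHSC 2 held more than the other 4 of its group together (log2 fold change 3.37, SE 1.26, adjusted p = 0.0446). The call for *Ccr7* was lost when any of 7 libraries was left out (hypHSC 1, 2, 3 or 4, or qHSC 1, 2 or 5), with log2 fold changes of 2.68 to 4.28 over all 10. It was also lost with the hypHSC libraries of 12 weeks alone (1.82, adjusted p = 0.254).

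*Cx3cr1*, the fractalkine receptor of monocytes and resident macrophages, was 693, 1019.7, 985, 171 and 0 in hypHSC and 40.7, 8.52, 11.8, 7.70 and 0 in qHSC. With hypHSC 5 at 0 it was not a DEG (log2 fold change 4.27, SE 1.80, adjusted p = 0.0700). Without that library it was (6.11, adjusted p = 0.000359), and edgeR and DESeq2 called it with all libraries (5.41, adjusted p = 0.00733, and 5.38, adjusted p = 3.58e-05). *Xcr1*, a receptor of cross-presenting dendritic cells, ranged over 94.0 to 986 in hypHSC and 64.3 to 246 in qHSC (log2 fold change 1.52, SE 0.64, adjusted p = 0.0728, not a DEG) and was called without hypHSC 3 (1.97, adjusted p = 0.0173) and by edgeR and DESeq2. *Ccr9* (103 to 191 in hypHSC, 57.0 to 239 in qHSC) had a log2 fold change of 0.47 (adjusted p = 0.365), and -0.46 when scaled on *Hprt*, *Pgk1* and *Actb*. *Cxcr6* was low, with a log2 fold change of 0.78 (adjusted p = 0.572) whose sign changed without qHSC 4 (-0.26) and under the same scaling (-0.083).

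Of the 4 atypical receptors, 3 fell. *Ackr1*, which presents inflammatory chemokines on venular endothelium and on red cells, was at 0, 19.7, 20.0, 86.0 and 0 in hypHSC and 1168, 1413, 1028, 1057 and 1101 in qHSC. It was nearly constant over the qHSC libraries and at 0 in 2 of the hypHSC libraries (log2 fold change -7.12, SE 1.13, adjusted p = 0.000362). Over all alternatives tried, the log2 fold change lay between -7.97 (without hypHSC 4) and -5.40 (edgeR). In the GENCODE gene annotation, *Cadm3* and *Gm70583* cover 30.4% of the exon bases of *Ackr1*. In the deposited positions, *Ackr1* (chr1:173159457-173161241) and *Cadm3* (chr1:173161821-173195261) do not overlap. *Cadm3* itself was lower (log2 fold change -8.45), and its part in the value of *Ackr1* was not tested. *Ackr4*, which takes up *Ccl19*, *Ccl21* and *Ccl25*, held 199, 134, 142, 87.1 and 40.8 in hypHSC and 1672, 1435, 808, 732 and 710.3 in qHSC. Its lowest qHSC library was above every hypHSC library (log2 fold change -3.22, SE 0.43, adjusted p = 0.000113). *Acad11* covers 20.3% of the exon bases of *Ackr4* and was lower too (log2 fold change -1.50). *Ackr2*, a scavenger of inflammatory CC chemokines, had 55.2, 472, 113, 56.5 and 41.2 in qHSC and reads in hypHSC 5 alone in hypHSC (7.56). The fall (log2 fold change -5.94, SE 0.87, adjusted p = 0.000201) changed in size with the added count, from -4.05 with 5 added to -6.74 with 0.5 added. *Ackr2* entered the test through its qHSC libraries alone, so its adjusted p is a description. *Ackr3*, the second receptor of *Cxcl12*, was 18.1 to 88.9 in hypHSC and 15.4 to 246 in qHSC and was not a DEG (log2 fold change -0.94, SE 0.78, adjusted p = 0.347). The exact two-sided permutation p of each member whose groups do not overlap was 0.00794, the smallest that 5 against 5 libraries can give. This value follows from the lack of overlap itself and adds nothing to it.

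The receptors not tested were *Cxcr1*, *Cxcr2*, *Ccr4*, *Ccr6*, *Ccr8*, *Ccr10*, *Cxcr5* and *Ccr1l1*. Both neutrophil receptors of interleukin-8 type ligands were low. *Cxcr2*, the receptor of *Cxcl1*, *Cxcl2*, *Cxcl3* and *Cxcl5*, was at 47.2, 97.3, 32.4, 8.39 and 0 in hypHSC and at most 1.5 in qHSC. *Cxcr1* was at 16.2, 3.11, 39.9, 34.6 and 0 in hypHSC and 0 in every qHSC library, at least 7.54-fold higher on the group means against the mean floor of 2.49. *Ccr6* was at 16.2, 24.9, 2.49, 56.6 and 86.2 in hypHSC, where hypHSC 3 lay at the floor, and at 0 in every qHSC library. It was at least 15.0-fold higher on the same means, although *Gm33799* covers 46.7% of its exon bases. The highest value in any library was 38.5 (*Ccr10*), 24.3 (*Cxcr5*), 8.15 (*Ccr8*), 2.49 (*Ccr1l1*) and 2.07 (*Ccr4*).

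To compare levels between genes, FPKM, the read count scaled to exon length and to the total reads on genes with a symbol, was computed for the 63 members with an exon length. This length joins the exons of all annotated transcripts of a gene (8346 bases for *Cxcl12*, 1138 for *Ccl2*), and ranks and shares depend on it. Without it, mean normalized counts in qHSC were 114813 for *Cxcl12* and 51294 for *Ccl2*. The summed FPKM of ligands was 2460 to 4649 in hypHSC and 1575 to 5312 in qHSC, so the sums overlapped, but different ligands made them up. In hypHSC, *Ccl6* came first with 1495 ± 629.7 FPKM (SD, n = 5), and its range lay above that of the second, *Ccl4*, at 505 ± 183. *Ccl3* (339.8 ± 80.0), *Ccl9* (297 ± 61.1) and *Ccl2* (247 ± 127) followed, and from *Ccl4* on each range overlapped the next. In qHSC, *Ccl2* was the highest with 1386 ± 980.1, before *Ccl19* (436 ± 288), *Cxcl12* (418 ± 117) and *Ccl7* (224 ± 214), and each of these ranges overlapped the next. The share of *Ccl6* in the summed ligand FPKM was 34.4% to 54.2% in hypHSC and 0.287% to 5.17% in qHSC. Shares of *Ccl2* were 4.63% to 9.83% and 28.8% to 55.2%, and those of *Cxcl12* 0.0122% to 0.465% and 5.49% to 36.2%. Receptors were lower than ligands, with sums of 64.5 to 132 FPKM in hypHSC and 28.9 to 41.6 in qHSC. *Ccr1* led in hypHSC (49.8 ± 8.18 FPKM), with a range above that of the next receptor. *Ackr1* led in qHSC (25.1 ± 3.30) above *Ackr4* (4.02 ± 1.71), again without overlap of the ranges. *Ccr1* made up 46.8% to 70.9% of the receptor FPKM of hypHSC libraries and *Ackr1* 64.0% to 76.4% of those of qHSC.

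**Figure D4:**
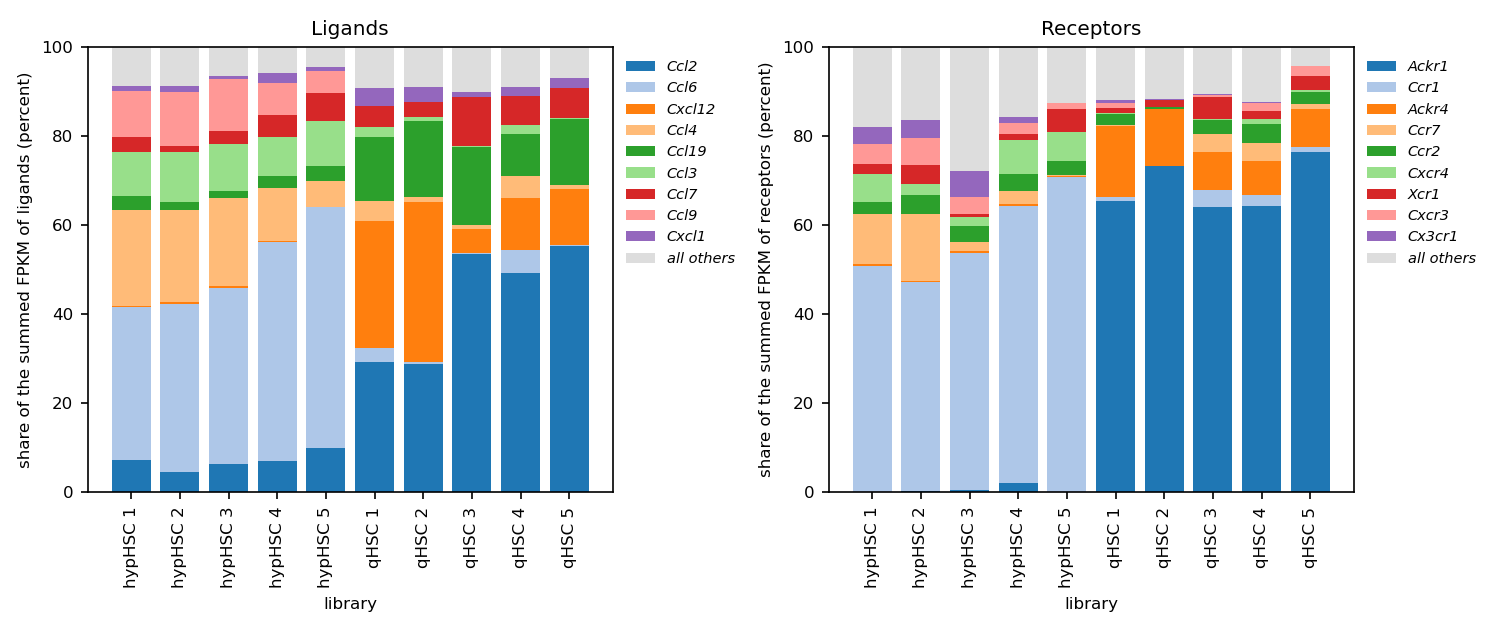
Share of each gene in the summed FPKM of ligands (left) and receptors (right), in percent, in each of the 10 libraries, with 9 genes of large share drawn apart and the rest in grey. *Ccl6* (ligands) and *Ccr1* (receptors) take the largest part in each hypHSC library. In qHSC *Ackr1* takes 64.0% to 76.4% of receptor FPKM, and *Ccl2* takes 28.8% to 55.2% of ligand FPKM.

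Known ligands and receptors were set side by side in 35 pairs drawn up from general knowledge, of which 24 had both partners tested. Both partners were higher in 9 pairs, among them *Ccl3*, *Ccl5*, *Ccl6* and *Ccl9* with *Ccr1*, *Ccl12* with *Ccr2* and *Ccl5* with *Ccr3*. The ligand was lower and the receptor higher in 5 pairs, which were *Cxcl12* with *Cxcr4*, *Ccl2* with *Ccr2*, *Cxcl10* with *Cxcr3*, and *Ccl19* and *Ccl21a* with *Ccr7*. Both were lower in 1 pair (*Ccl19* with *Ackr4*), and the ligand was higher and the receptor lower in 1 (*Ccl25* with *Ackr4*). The remaining 8 pairs had at least 1 partner that was not a DEG. The list holds no pair with *Ackr1* or *Ackr2*, which were both lower in hypHSC, so the counts depend on which pairs were listed. The pairs also share genes, so their counts are a description. The pairs compare RNA levels within preparations and do not show which cells carry the receptor.

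Chemokines and related genes that the symbol rule leaves out were counted from lists. Of 5 other chemokine-like genes, 2 were DEGs higher and 1 was lower. *Rarres2*, which encodes chemerin, fell (log2 fold change -3.39, adjusted p = 4.90e-05), whereas its receptor gene *Cmklr1* rose (4.19, adjusted p = 0.000614). *Cklf* rose (2.06, adjusted p = 5.22e-05), and the platelet chemokine *Pf4* (0.92) and *Mif* (0.38) were below the fold threshold. Of 5 tested receptors and modulators, 2 were higher and 1 was lower. *Cd74*, which binds *Mif* and chaperones MHC class II, was at 161251 to 313738 in hypHSC and 5353 to 95041 in qHSC (log2 fold change 3.02, adjusted p = 0.00276). The endothelial scavenger receptor *Gpr182* fell (-3.95, adjusted p = 0.00494), and *Ccrl2* was not a DEG (0.05, adjusted p = 0.890).

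Of 30 genes of chemokine receptor signalling, all tested, 19 were higher and 3 lower. *Rgs1* and *Rgs2*, which dampen G protein signals, showed log2 fold changes of 5.92 and 5.46 (adjusted p = 3.49e-05 and 6.08e-05), while *Cdc42* (0.76) and *Gnb1* (0.02) were not DEGs. Many of these genes are used by all leukocytes. Of 8 sheddases and surface anchors of chemokines, 4 were higher and 1 lower. The sheddases *Adam10* (1.60, adjusted p = 0.00136) and *Adam17* (1.42, adjusted p = 0.000274) rose, the syndecan *Sdc2* fell (-2.84, adjusted p = 3.03e-05) and *Sdc3* did not pass (0.19). Of 14 tested inducers of chemokines and NF-kB genes, 4 were higher and 4 lower. The inhibitor *Tnfaip3* rose (3.78, adjusted p = 3.14e-05), *Nfkbiz* fell (-1.94, adjusted p = 0.000138), and *Nfkbia* was not a DEG (-0.34).

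The macrophage marker sums differed between the groups. Among the qHSC libraries, some members were highest in the same libraries as the sums. In qHSC, 6 of the 50 members tested, among them *Ccl6*, *Ccl3*, *Ccl4*, *Cxcl13* and *Ccl24*, were highest in qHSC 4 and second highest in qHSC 1, which held the highest and second highest marker sums. More of the 50 members were highest in qHSC 3 (21, with a marker sum of 12407) than in qHSC 4 (11). Of the 17 DEGs higher in hypHSC, 9 were highest in qHSC 4 and 5 in qHSC 3. The share with these orders among all genes, or among all DEGs higher in hypHSC, was not computed. The counts thus cannot set the members apart from other genes. *Ccl9* and *Cxcl2* were highest in qHSC 4 and second highest in qHSC 3, and *Ccr1* was highest in qHSC 3. In hypHSC the marker sums differed less (1177780 in hypHSC 5 to 1607050 in hypHSC 2), but *Lyz2* alone held 740305 to 940344 of them. Single markers differed more and not in 1 direction. *C1qa* (2231 to 51668) and *Csf1r* (1833 to 24497) were lowest in hypHSC 5, and *Ptprc* (16170 to 30003) and *Fcer1g* (57637 to 97274) were highest there. *Ccl6* and *Ccl3* were highest in hypHSC 5, the library with the lowest sum. Without qHSC 4, 11 ligands were higher and 12 lower, and 7 receptors were higher and 3 lower.

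**Figure D5:**
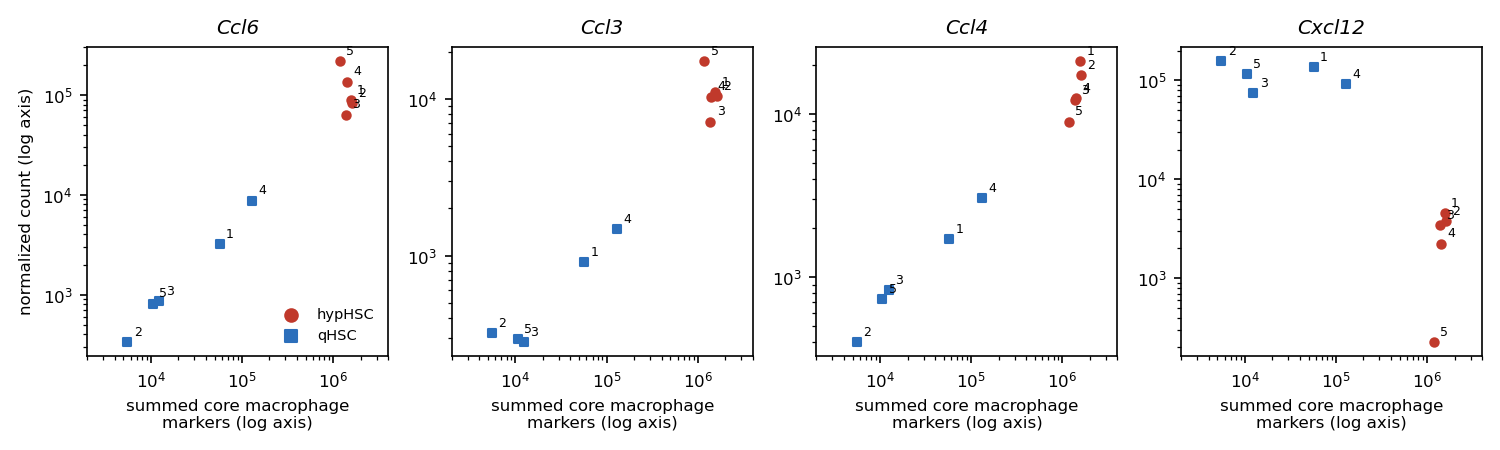
Normalized counts of *Ccl6*, *Ccl3*, *Ccl4* and *Cxcl12* (vertical log axes) against the summed normalized counts of 14 core macrophage markers (horizontal log axes) in the 5 hypHSC libraries (red circles) and 5 qHSC libraries (blue squares), each numbered. For *Ccl6* and *Ccl4*, qHSC 2 is the lowest library and qHSC 4 the highest of its group, and the hypHSC libraries stand at the upper right, whereas for *Cxcl12* they stand at the lower right.

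The spread between libraries was wide for the members. The median SD of their log2 values was 1.12 in qHSC and 0.845 in hypHSC, against 0.340 and 0.728 over all genes tested. The genes were not matched for level. Some members lay near the floor in qHSC (*Cxcl3* at 0 to 11.8, *Ccr3* at 0 to 2.56), and the part of counting error in the spread was not tested. Within hypHSC, 8 of the 50 members tested were higher in both libraries of 13 weeks than in all 3 of 12 weeks (*Ccl5*, *Ccl9*, *Ccl4*, *Cxcl12*, *Ccl22*, *Ackr3*, *Ccr7* and *Cxcr3*), where 15.6% of all genes tested were. The reverse held for *Ccl25* alone, where 6.34% of all genes were. As 2 libraries against 3 cannot give an exact permutation p below 0.1, these are descriptions. The libraries of 13 weeks also had more mitochondrial reads (12.8% and 7.27%, against 2.21% to 3.42%) and more reads on entries without a symbol (29.1% and 20.1%, against 10.8% to 13.2%), and the part of this was not tested.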

How the data were processed

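Cells of 5 hypHSC and 5 qHSC preparations were sequenced as unstranded, poly(A)-primed, template-switched libraries (paired 59-base reads). Per the study's methods, the authors aligned reads to mm39 with STAR, counted them per gene with featureCounts and deposited normalized counts, a signal made by dividing reads by DESeq2 size factors. Dividing back gave whole reads (within 0.1 read) in 100% of values, and size factors recomputed from them matched those of the authors.

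Groups were taken from the labels. Normalized counts were tested as log2(value + 1) with limma 3.58.1 (R 4.3.3, intensity trend) on entries with a symbol that reached 10 normalized counts in 5 or more of 10 libraries. DEGs passed a log2 fold change of 1 in either direction and an adjusted p of 0.05. On the recovered reads, edgeR 4.0.16 called 5336 and DESeq2 1.42.0 called 5822 of these genes, as alternatives. DEGs with a mean of at least 100 in a group are given with every library, others by range, fold change or highest value, and at most 4 genes of a pathway list, those of the largest mean, are named. The members and lists were chosen with earlier results of these data known. The fit was tested on simulated data. Exon overlap, shared stretches and exon lengths came from the GENCODE annotation of GRCm39 for 63 members, and promoter windows from RefSeq (GRCm38.p6). Per the study's methods, reads were counted on another annotation, FAST DB, so the overlaps given can differ from those of the counted entries. Floors and intervals cover counting error only, and 3 reads were taken as the floor. Replicate numbers do not pair the libraries in the labels. Some items are not reported here.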

Additional observations from a re-analysis of the deposited data

Results flagged for a closer look

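Of 86 groups of 5 libraries examined for the members, 7 held a library that stood apart from the other 4. The criterion was that of Dixon at the 95% level on log2(normalized count + 1), where chance alone would give about 5%. No explanation was tested for any of these 7. The values given here are normalized counts, on which the criterion was not applied. In hypHSC, the value of *Cxcl12* in hypHSC 5 (227 normalized counts) lay far below those of the others (2239.8 to 4511), that of *Cx3cr1* in hypHSC 5 was 0 against 171 to 1019.7, that of *Ackr2* in hypHSC 5 (7.56) was the only one above 0, and that of *Ccl25* in hypHSC 2 (185) was the lowest. In qHSC, *Ccl25* was lowest in qHSC 4 (53.0), *Ccr2* was lowest in qHSC 2 (34.9) and *Ccl17* was highest in qHSC 5 (51.7). For *Ackr2*, any value above 0 would meet the criterion, as the other hypHSC libraries had no read. Of these 7 values 3 come from hypHSC 5, which had the smallest size factor (0.661).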

How the results depend on the processing

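Over 24 alternatives, the 31 DEGs among the members gave 738 values, of which 711 held the call, 27 lost it and 0 changed sign, and 26 DEGs were called under every alternative. Calls were lost for *Ccl5* and *Ccr7* (12 alternatives each), for *Ccl2* and *Cxcr3* with the hypHSC libraries of 12 weeks alone, and for *Ccl25* when scaled on *Hprt*, *Pgk1* and *Actb*. The 19 members that were not DEGs gave 452 values, of which 29 were called and 21 changed sign. With that scaling the values that changed sign were -0.29 (*Cxcl16*), -0.73 (*Cxcl9*), -0.46 (*Ccr9*) and -0.083 (*Cxcr6*), with 12-week libraries 0.33 (*Ccl7*) and 0.069 (*Cxcl14*), with equal totals -0.14 (*Cxcl9*), with equal upper quartiles 0.054 (*Cxcl14*), in edgeR 0.069 (*Cxcl14*) and -0.15 (*Cxcl9*), and in DESeq2 0.0017 (*Cxcl14*) and -0.19 (*Cxcl9*). The cause was not tested. With each library left out in turn, log2 fold changes ranged from -0.57 to 0.28 (*Ccl7*), -0.21 to 0.15 (*Cxcl14*), -0.50 to 0.12 (*Cxcl1*), -0.12 to 0.69 (*Cxcl9*) and -0.26 to 1.28 (*Cxcr6*), 9 to 11 ligands were higher and 11 to 14 lower, 6 to 8 receptors were higher and 3 lower, and 5241 to 5914 of all genes were DEGs. All-gene DEGs numbered 9291 with entries without a symbol. Other scalings moved the median log2 fold change of all genes by 0.04 (TMM), -0.35 (equal totals), 0.11 (equal upper quartiles) and -0.93 (*Hprt*, *Pgk1* and *Actb*), and with the last 8 ligands were higher and 16 lower, with equal totals 9 and 14, against 10 and 11. Same-numbered libraries deviated together with correlations of 0.008 to 0.129, and only number 5 correlated best with its own, so the numbers were not taken to pair the libraries. With the replicate number as a block, 5786 of all genes, 9 higher and 12 lower ligands and 7 higher and 3 lower receptors were DEGs (adjusted p of *Ccl5* 0.0600, of *Ccr7* 0.0787, of *Cx3cl1* 0.0469 and of *Cx3cr1* 0.00899). DESeq2 gave no adjusted p for 37 genes. Members under the floor of 2.25 to 4.54 normalized counts could not be measured at this depth.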
